A study of Rattus norvegicus with 6 samples.

Results

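The genes described here encode amino acid sensors and regulators that act on the kinase complex mTORC1 at the lysosome, measured in rat gastrocnemius muscle under 3 diets. They were chosen by gene symbol, namely Slc38a9, Sesn1, Sesn3, Nprl2, Nprl3, Depdc5, Rraga, Rragc, Rragd and Flcn. All 10 were present among the 14506 genes of the array table, each with 1 transcript cluster, the group of probes that gives 1 value per gene and array. RNA came from gastrocnemius muscle of male Sprague-Dawley rats, obese from a diet rich in fat and sucrose. Diets began at 12 weeks of age, were eaten freely for 8 weeks, and muscle was taken at 20 weeks. Every diet held 4.6 kcal/g and 10% of its energy as protein. In the leucine diet this protein was 7.1% casein with 2.9% free leucine, skim milk powder supplied complete dairy protein in the dairy diet, and the control diet held casein. There were 2 arrays per diet and 4 rats per diet in the design. Nothing in the labels ties each array to a rat of its own, so p-values measure only the spread between these samples, which may be technical.

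When amino acids are plentiful, the Rag GTPases bring mTORC1 to the lysosomal surface, where the GTPase Rheb can switch it on. The Rags work as a pair of RagA or RagB with RagC or RagD. The complex GATOR1, built from Depdc5, Nprl2 and Nprl3, turns RagA and RagB off, and GATOR2 holds GATOR1 in check. Sestrins bind GATOR2, and sestrin 1 and sestrin 2 let go of it when they bind leucine. SLC38A9 is a transporter of the lysosomal membrane that reports arginine inside the lysosome, and folliculin, the product of Flcn, acts on RagC and RagD. These roles were worked out mainly in human and mouse cells. In skeletal muscle mTORC1 is known for raising protein synthesis after a meal rich in leucine.

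Values are log2 signals, on which a difference of 1 is a doubling of signal, and signals of different genes cannot be set against each other. Skeletal muscle transcripts were bright on every array, with Acta1, the skeletal actin, between 13.2 and 13.6. The protocol texts mention liver in the storage and extraction steps. A list of 14 hepatocyte transcripts averaged 3.50 and 5.41 on the leucine arrays, 4.38 and 3.60 on the dairy arrays, and 4.94 and 6.87 on the casein arrays. Alb, the albumin gene, ran from 4.81 on leucine array 1 to 11.7 on casein array 2. Casein array 2 stood apart in other ways as well. Its mean correlation with the other arrays was 0.974, while that of the others lay between 0.985 and 0.988. Its 10 slow-fibre transcripts averaged 6.06, where the other arrays had 9.56 to 10.3, and its 10 inflammatory transcripts averaged 6.05, where the others had 3.74 to 3.93. Values against casein that this array moved by over 1.5 times, or turned in sign, are given without it too.

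Many values in the deposited table repeat to the last digit. In 60.8% of the 14506 genes at least 2 arrays carried the same value, and so did 4 of the 10 sensor genes, Depdc5, Rraga, Rragc and Rragd. A repeated value gives an SD of 0 that is not a measured absence of spread. No gene of the whole table passed an adjusted p of 0.05 by limma in any of the 3 comparisons (0 of 14506, or 0%, in each), with lowest adjusted p of 0.353 for leucine over casein, 0.833 for dairy over casein and 0.514 for leucine over dairy. At an unadjusted p under 0.05 there were 1394, 696 and 827 genes in the same order. The differences given below are therefore values with their errors, and none of them is a call.

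The 5′ flanking sequence is shown for Slc38a9 and Nprl2, the members with an unadjusted p under 0.05 in at least 1 comparison. It holds the 250 bases before an annotated start in RefSeq, build GRCr8, read 5′ to 3′ on the plus strand, with each CG pair in capitals. The Slc38a9 window is chr2:46035818-46036067, and its start lies 11337 bases inside the gene record, so it belongs to an inner start. The Nprl2 window is chr8:117094216-117094465, and its start lies 23 bases from the 5′ end of the gene record.
Slc38a9: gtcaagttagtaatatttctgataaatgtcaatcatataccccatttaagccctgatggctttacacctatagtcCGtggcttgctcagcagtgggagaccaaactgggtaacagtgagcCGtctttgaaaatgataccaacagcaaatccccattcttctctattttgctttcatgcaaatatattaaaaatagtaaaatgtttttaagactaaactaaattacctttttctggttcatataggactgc
Nprl2: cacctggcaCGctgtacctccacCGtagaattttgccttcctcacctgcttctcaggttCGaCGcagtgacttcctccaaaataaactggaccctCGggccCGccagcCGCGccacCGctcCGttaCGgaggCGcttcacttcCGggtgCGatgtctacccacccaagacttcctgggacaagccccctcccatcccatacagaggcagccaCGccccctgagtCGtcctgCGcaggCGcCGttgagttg
The Slc38a9 window holds 2 CG pairs and is 36% G and C, and the Nprl2 window holds 19 and is 62.4% G and C. Among all 33469 windows of this length the median was 5 CG pairs and 51.2% G and C. The table also held Sesn1, Sesn3, Nprl3, Depdc5 and Flcn, whose windows had 13 to 27 CG pairs. The start of the Sesn1 window lies 71801 bases from the 5′ end of the gene record, so the window is not at that end of the gene. Rraga, Rragc and Rragd are named only. On both strands, 0 of the 7 windows held CACGTG, the core of the element bound by TFEB, which 5.59% of all windows held. The forkhead element GTAAACA, which 3.21% of all windows held, and TGATGNAA, an amino acid response element bound by ATF4, which 3.4% held, were likewise in 0 of the 7. This says only that these letters are not in these windows.

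Slc38a9, the gene of the lysosomal arginine sensor, had the smallest p of the 10 genes in all 3 comparisons. Its log2 signal was 5.13 and 5.19 on the leucine arrays, 4.62 and 4.64 on the dairy arrays, and 4.38 and 4.30 on the casein arrays. The diets did not overlap in any pair, and the order of levels was leucine, dairy, casein. Mean and SD were 5.16 ± 0.04 on leucine, 4.63 ± 0.01 on dairy and 4.34 ± 0.05 on casein (n = 2 each). With leucine the signal was 1.76-fold that with casein, a log2 fold change of 0.82 ± 0.06 (SE; 95% interval 0.64 to 0.99; limma, unadjusted p = 0.000128, Benjamini-Hochberg adjusted p = 0.353 over all genes). Set against dairy, leucine gave a log2 fold change of 0.53 ± 0.06 (0.35 to 0.70; limma, unadjusted p = 0.000816, adjusted p = 0.514). Dairy over casein stood at 0.29 ± 0.06 (0.12 to 0.46; limma, unadjusted p = 0.00843, adjusted p = 0.833). By unadjusted p Slc38a9 ranked at 3 of 14506 for leucine over casein, at 11 for leucine over dairy and at 123 for dairy over casein. With any 1 array left out the log2 fold change was 0.78 to 0.85 for leucine over casein, 0.50 to 0.55 for leucine over dairy and 0.25 to 0.33 for dairy over casein. Without casein array 2 leucine over casein stood at 0.78 and dairy over casein at 0.25. Over the alternatives that kept 2 arrays per diet, the unadjusted p by limma was 0.000127 to 0.0012 for leucine over casein. It was 0.00081 to 0.00925 for leucine over dairy and 0.00839 to 0.078 for dairy over casein, with adjusted p between 0.307 and 0.994. The highest unadjusted p of each comparison came when genes with repeated values were left out. The SE and interval above draw on the spread of all genes, those with repeated values included. Marker lists of other cells and of fibre types also differed between the diets, with 0 of their genes past an adjusted p of 0.05 by limma. All 9 fibroblast markers had lower means with leucine than with dairy or casein, with list means of 5.90 and 6.07 on the leucine arrays, 7.68 and 7.10 on the dairy arrays, and 7.003 and 6.96 on the casein arrays. All 12 macrophage and leukocyte markers did too, with list means of 4.49 and 4.43 on the leucine arrays, 5.16 and 5.05 on the dairy arrays, and 4.56 and 5.63 on the casein arrays. Without casein array 2 this held for all 9 fibroblast markers but for 7 of 12 macrophage and leukocyte markers against casein. Endothelial markers followed this only against dairy, with 0 of 6 higher with leucine. Against casein 4 of 6 were higher with leucine (median log2 fold change 0.27), or 3 of 6 (median 0.12) without casein array 2. Of 7 adipocyte and 5 Schwann cell and nerve markers, 0 were higher with leucine than with dairy and 1 in each list was higher than with casein. With leucine against dairy, 0 of 9 skeletal muscle markers were higher (median log2 fold change −0.23), 1 of 12 fast-fibre markers was higher (median −0.26) and 9 of 10 slow-fibre markers were higher (median 0.44). In the same order, against casein 3 of 9, 2 of 12 and 10 of 10 were higher (medians −0.10, −0.11 and 2.21). Without casein array 2 these were 0 of 9, 1 of 12 and 5 of 10 (medians −0.20, −0.24 and −0.006). Of 14 hepatocyte markers 13 were higher with leucine than with dairy, or 2 without leucine array 2. Against casein 0 were, or 2 without casein array 2. Of 10 inflammatory markers 4 were higher against dairy and 0 against casein, or 3 without casein array 2. Of all genes 48.4% were higher with leucine than with dairy and 48.5% higher than with casein. The part of these lists in the Slc38a9 difference was not tested, and in whole muscle fewer cells of a type cannot be told apart from less RNA per cell.

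**Figure D1:**
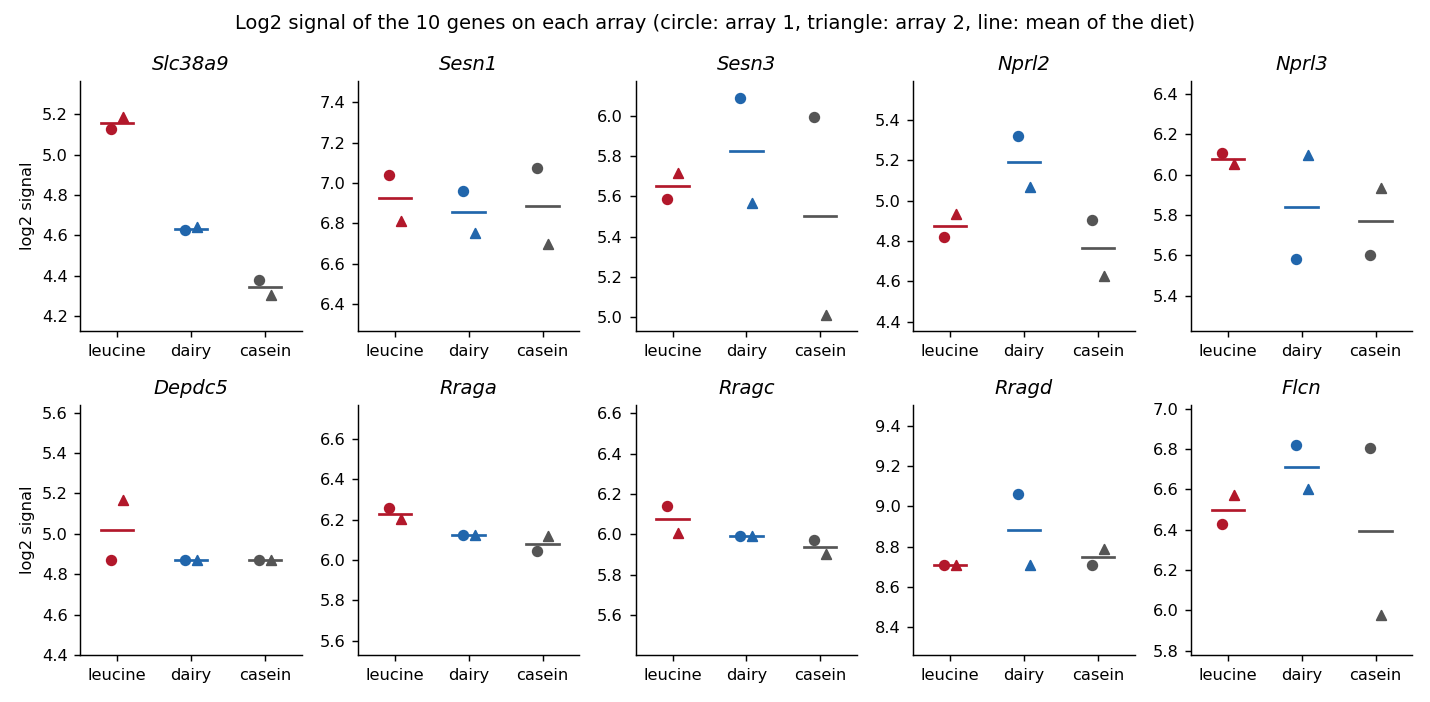
Log2 signal (vertical axes, all of the same height in log2 units) of the 10 genes on each array, by diet. Points are single arrays and lines are diet means. Slc38a9 forms 3 separate levels, from 5.13 and 5.19 with leucine to 4.38 and 4.30 with casein, while Sesn3 and Flcn are lowest on casein array 2, at 5.01 and 5.98.

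The sestrin genes showed no such separation. Sesn1, which encodes a leucine-binding sestrin, had 7.04 and 6.81 on the leucine arrays, 6.96 and 6.75 on the dairy arrays, and 7.07 and 6.70 on the casein arrays. In every diet array 1 was above array 2, and the diets overlapped in each pair. Its log2 fold change was 0.04 ± 0.17 for leucine over casein (95% interval −0.43 to 0.51), −0.03 ± 0.17 for dairy over casein and 0.07 ± 0.17 for leucine over dairy. Sesn1 stood at −0.15 for leucine over casein and −0.22 for dairy over casein when casein array 2 was left out. Sesn3, another sestrin gene, had 5.58 and 5.71 on the leucine arrays, 6.09 and 5.56 on the dairy arrays, and 5.99 and 5.01 on the casein arrays. Casein arrays 1 and 2 thus differed by more than any pair of diet means. Sesn3 stood at 0.15 ± 0.38 for leucine over casein, with a 95% interval of −0.89 to 1.18, and at 0.32 ± 0.38 for dairy over casein. Without casein array 2 both turned, to −0.34 and −0.17.

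GATOR1 was measured through all 3 of its subunits, and each had a pattern of its own. Nprl2 had 4.82 and 4.93 on the leucine arrays, 5.32 and 5.07 on the dairy arrays, and 4.90 and 4.63 on the casein arrays. Both dairy arrays were above all other arrays. Dairy over casein was 1.34-fold, a log2 fold change of 0.43 ± 0.14 (95% interval 0.04 to 0.81; limma, unadjusted p = 0.0373, adjusted p = 0.833), or 0.29 without casein array 2, with an unadjusted p of at most 0.158 over the alternatives tried. Leucine over dairy stood at −0.32 ± 0.14 (limma, unadjusted p = 0.0873, adjusted p = 0.903), and leucine over casein at 0.11 ± 0.14, or −0.03 without casein array 2. Nprl3 had 6.11 and 6.05 on the leucine arrays, 5.58 and 6.10 on the dairy arrays, and 5.60 and 5.93 on the casein arrays. The leucine arrays were both above the casein arrays, while the dairy arrays were spread, with 1 among the leucine arrays and 1 below all others. Nprl3 stood at 0.31 ± 0.22 for leucine over casein (−0.27 to 0.89; limma, unadjusted p = 0.217, adjusted p = 0.678) and at 0.07 ± 0.22 for dairy over casein. Leucine over casein was 0.48 without casein array 2 and 0.15 without casein array 1, and dairy over casein 0.24 and −0.10. Dairy over casein was 0.33 without dairy array 1 and −0.19 without dairy array 2. Depdc5 carried 4.87 on 5 of the 6 arrays, repeated to the last digit, and 5.17 on leucine array 2. Its log2 fold change of 0.15 ± 0.11 for leucine over casein is thus that of a single array, and it was 0 without leucine array 2.

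The Rag genes spanned 0.21 to 0.35 over the 6 arrays. Rraga, which encodes RagA, had 6.26 and 6.20 on the leucine arrays, 6.12 on both dairy arrays, and 6.04 and 6.12 on the casein arrays. Rragc, for RagC, had 6.14 and 6.01 on the leucine arrays, 5.99 on both dairy arrays, and 5.97 and 5.90 on the casein arrays. Both leucine arrays were the highest in both genes. The dairy value is a number repeated to the last digit on both arrays, and for Rraga it lay only 0.0038 above casein array 2, so the separation of dairy from casein rests on no measured spread. Leucine over casein stood at 0.15 ± 0.06 for Rraga (95% interval −0.02 to 0.32; limma, unadjusted p = 0.0742, adjusted p = 0.565). It stood at 0.14 ± 0.07 for Rragc (−0.07 to 0.34; limma, unadjusted p = 0.137, adjusted p = 0.643). These values were 0.19 for Rraga and 0.10 for Rragc without casein array 2. Against dairy, leucine gave 0.11 ± 0.06 for Rraga and 0.08 ± 0.07 for Rragc, and dairy over casein gave 0.04 ± 0.06 and 0.05 ± 0.07, values that became 0.08 and 0.02 without casein array 2, and −0.08 and −0.06 after quantile normalization. Rragd, for RagD, had 8.71 on 4 of the 6 arrays, repeated to the last digit, with 9.06 on dairy array 1 and 8.79 on casein array 2. Its log2 fold change was −0.04 ± 0.13 for leucine over casein, or 0 without casein array 2, and 0.14 ± 0.13 for dairy over casein, or −0.04 for the second without dairy array 1.

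Flcn, which encodes folliculin, had 6.43 and 6.57 on the leucine arrays, 6.82 and 6.60 on the dairy arrays, and 6.80 and 5.98 on the casein arrays. Both leucine arrays were below both dairy arrays, casein array 1 lay between the dairy arrays, and casein array 2 was below all others. Its log2 fold change was 0.11 ± 0.30 for leucine over casein (95% interval −0.70 to 0.91), 0.32 ± 0.30 for dairy over casein and −0.21 ± 0.30 for leucine over dairy. Without casein array 2 the comparisons with casein turned, to −0.30 and −0.09. Flcn and Sesn3 followed each other across the 6 arrays with r = 0.971, the highest among all pairs of members, and both were lowest on casein array 2, the array on which slow-fibre transcripts were also lowest. Slc38a9, Sesn1, Nprl2 and Rragc were lowest on that array too. The mean of the 10 genes was 5.82 there and 6.03 to 6.14 on the other arrays. The part of the slow-fibre transcripts in the Flcn and Sesn3 values was not tested.

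**Figure D2:**
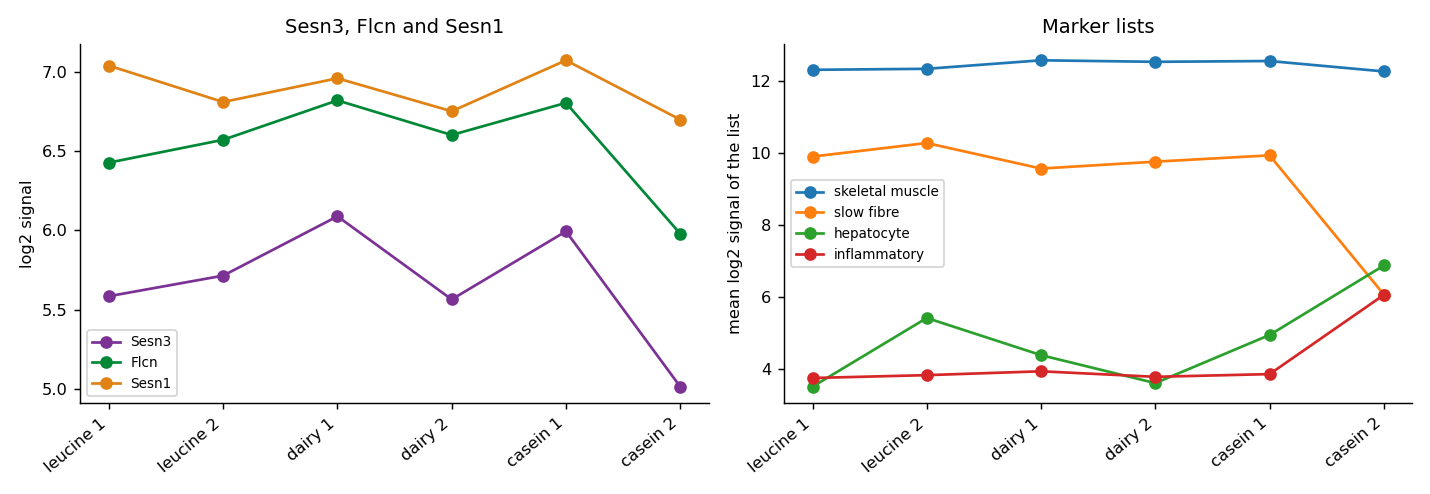
Left, log2 signal of Sesn3, Flcn and Sesn1 on the 6 arrays. Right, the mean log2 signal of 4 marker lists on the same arrays. On casein array 2 Sesn3 is at 5.01 and Flcn at 5.98, the slow-fibre list at 6.06, the hepatocyte list at 6.87 and the inflammatory list at 6.05, while the skeletal muscle list stays between 12.3 and 12.6 on every array.

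Counts of fold changes above 0 among the 10 genes depended on single arrays. With leucine against casein, 9 of 10 had a log2 fold change above 0, against 48.5% of all genes, and 1 was below 0, against 49.1%, and their median was 0.14 against a median of 0 over all genes. Without casein array 2 only 5 of 10 were above 0, against 47.4% of all genes, and the median was 0.05. A single member, Slc38a9, had an unadjusted p under 0.05, where 9.61% of all genes did. In 4 of 10, Slc38a9, Nprl3, Rraga and Rragc, both leucine arrays were above both casein arrays, and this was so in 15.9% of all genes. With dairy against casein, 8 of 10 were above 0, against 50.6% of all genes, 1 was below, against 46.3%, and Depdc5 was at 0, and the median was 0.10 against 0.0028 over all genes. Without casein array 2, 6 of 10 were above 0, against 47.7% of all genes, and the median was 0.05. Slc38a9 and Nprl2 had an unadjusted p under 0.05, both higher with dairy. In all genes 4.8% did, 2.49% higher and 2.31% lower. In 4 of 10, Slc38a9, Nprl2, Rraga and Rragc, both dairy arrays were above both casein arrays, as in 11.5% of all genes. With leucine against dairy, 6 of 10 were above 0, against 48.4% of all genes, with a median of 0.08 against 0. Without leucine array 1 or without dairy array 2, 5 of 10 were above 0, with medians of −0.01 and 0.02. Slc38a9 had an unadjusted p under 0.05, as 5.7% of all genes did, and 2.25% of all genes did so with higher values on leucine. The leucine arrays were above the dairy arrays in Slc38a9, Rraga and Rragc, 3 of 10 against 13.4% of all genes, and below them in Nprl2 and Flcn, 2 of 10 against 14.9%. The comparisons with casein share the casein arrays, and those with leucine the leucine arrays. Across all 3 diets the moderated F-test of limma gave Slc38a9 an unadjusted p = 0.000333 (adjusted p = 0.530) and Nprl2 one of 0.0810 (adjusted p = 0.766), and the other 8 had unadjusted p between 0.158 and 0.925. At an unadjusted p under 0.05 that test counted 1 of 10 members and 7.25% of all genes.

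**Figure D3:**
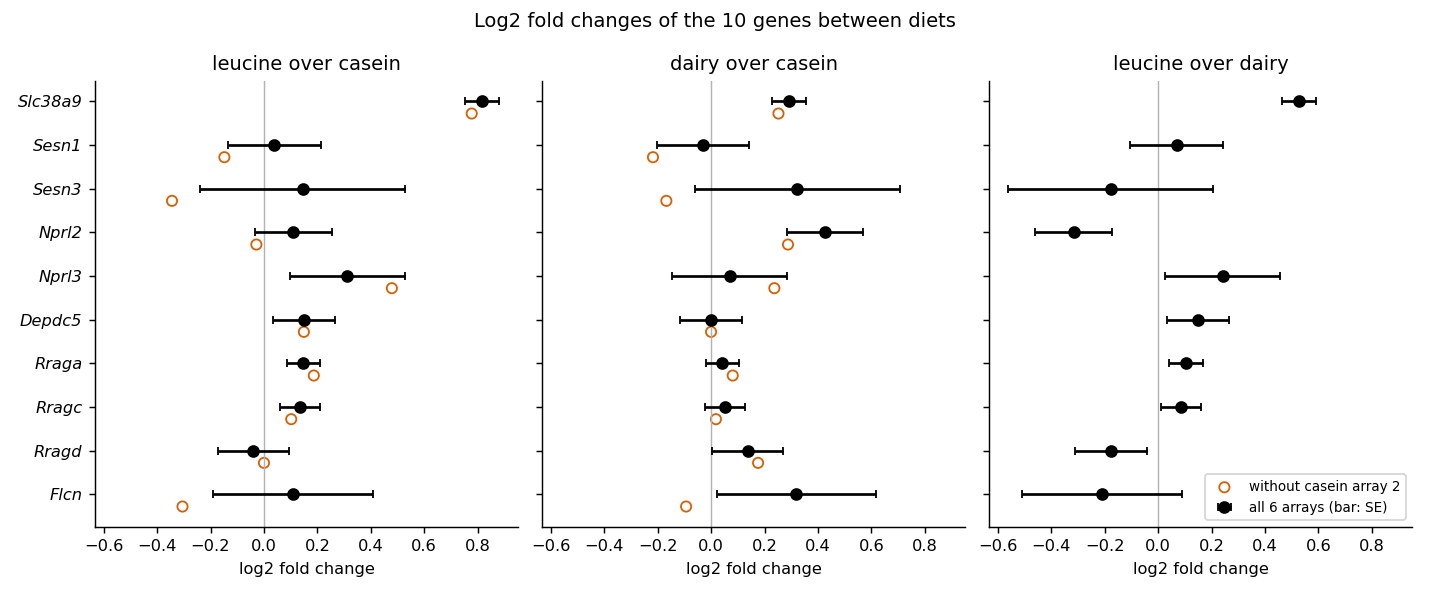
Log2 fold changes of the 10 genes in the 3 comparisons of diets. Filled points with bars are the fit to all 6 arrays with its SE, and open circles are the values without casein array 2. Slc38a9 stands at 0.82, 0.29 and 0.53 with an SE of 0.06 and moves little without that array, while Sesn3 and Flcn change sign in both comparisons with casein.

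The rest of the sensing machinery was covered by a list of 30 genes for the remaining sestrin, the cytosolic arginine sensors, GATOR2, the KICSTOR scaffold, Ragulator, the Tsc complex, Rheb and mTORC1 itself, of which 18 were measured. With leucine against casein 13 were higher and 5 lower, with a median of 0.11, and without casein array 2 there were 10 higher and 8 lower, with a median of 0.02. With dairy against casein 15 were higher and 3 lower, with a median of 0.11, or 0.06 without that array, and with leucine against dairy 6 were higher and 12 lower, with a median of −0.08. At an adjusted p of 0.05 limma called 0 of the 18 in each comparison, and at an unadjusted p under 0.05 it counted 2, 2 and 3 in the same order. Of all genes 9.61%, 4.8% and 5.7% had such a p. In that order 48.5%, 50.6% and 48.4% of all genes were higher, and 49.1%, 46.3% and 48.5% lower. Without casein array 2 the shares higher were 47.4% for leucine and 47.7% for dairy, each against casein. Rptor, which encodes the mTORC1 subunit raptor that binds the Rags, followed the same order as Slc38a9. It had 5.64 and 5.66 on the leucine arrays, 5.48 and 5.47 on the dairy arrays, and 5.33 and 5.26 on the casein arrays. Its log2 fold change was 0.35 ± 0.06 for leucine over casein (limma, unadjusted p = 0.00316, adjusted p = 0.353), 0.18 ± 0.06 for leucine over dairy and 0.18 ± 0.06 for dairy over casein. Kptn, a subunit of KICSTOR, which holds GATOR1 at the lysosome, had 4.84 and 4.78 on the leucine arrays, 5.28 and 5.30 on the dairy arrays, and 5.08 and 5.35 on the casein arrays. Both leucine arrays were the lowest of the 6, and leucine over dairy stood at −0.48 ± 0.11 (limma, unadjusted p = 0.00983, adjusted p = 0.612). Castor2, a relative of the cytosolic arginine sensor CASTOR1, stood at 0.68 ± 0.21 for dairy over casein, with 0.98 when casein array 2 was left out and 0.38 when casein array 1 was. Lamtor4, a subunit of the Ragulator scaffold that anchors the Rags, stood at −0.23 ± 0.07 for leucine over dairy.

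The vacuolar ATPase acidifies the lysosome and binds Ragulator. Of its 16 listed genes 15 were measured, of which 10 were higher and 5 lower with leucine against casein (median 0.10), 12 higher and 3 lower with dairy against casein (median 0.13), and 8 higher and 7 lower with leucine against dairy (median 0.0016). Both medians against casein were 0.05 without casein array 2. Limma called 0 at an adjusted p of 0.05 in each, and counted 1, 0 and 1 at an unadjusted p under 0.05. Of all genes 9.61%, 4.8% and 5.7% had such a p, and 48.5%, 50.6% and 48.4% were higher, in the same order. Atp6v0e1, a subunit of the membrane sector, had 5.37 and 5.31 on the leucine arrays, 5.17 and 5.16 on the dairy arrays, and 5.17 and 5.003 on the casein arrays, with 0.25 ± 0.08 for leucine over casein. The other 3 with the smallest F-test p were the accessory subunit gene Atp6ap1 at 0.17 ± 0.07 for dairy over casein, Atp6v1f at −0.22 ± 0.08 and Atp6v0b at 0.21 ± 0.08, both for leucine over dairy.

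TFEB is a transcription factor that drives lysosomal genes, and in other cells folliculin and the Rags hold it in the cytoplasm. Tfeb had 6.22 and 6.27 on the leucine arrays, 6.59 and 6.66 on the dairy arrays, and 6.79 and 6.70 on the casein arrays. Its levels thus ran in the opposite order to those of Slc38a9, with no overlap between diets. Tfeb stood at −0.50 ± 0.07 for leucine over casein (limma, unadjusted p = 0.00136, adjusted p = 0.353), at −0.38 ± 0.07 for leucine over dairy and at −0.12 ± 0.07 for dairy over casein. Its list of TFEB relatives and lysosomal genes had 19 of 25 measured. Leucine against casein gave 9 higher, 9 lower and a median of 0, dairy against casein 15 higher, 4 lower and a median of 0.10, and leucine against dairy 3 higher, 16 lower and a median of −0.14. Leucine against casein gave 12 higher, 6 lower and a median of 0.02 without casein array 2. Without casein array 1 the median for dairy against casein was 0.04, and without dairy array 2 that for leucine against dairy was −0.04. Limma called 0 of the 19 at an adjusted p of 0.05, and counted 3, 2 and 2 at an unadjusted p under 0.05. Of all genes 9.61%, 4.8% and 5.7% had such a p. In the same order 48.5%, 50.6% and 48.4% of all genes were higher, and 49.1%, 46.3% and 48.5% lower. Gabarap, for an autophagosome protein, stood at 0.33 ± 0.06 for leucine over casein. Hexa, for a subunit of the lysosomal hexosaminidase, stood at 0.46 ± 0.12 and Ctsf, for cathepsin F, at 0.25 ± 0.06, both for dairy over casein. Sestrins are known targets of p53 and FoxO factors. A list of 15 genes held such factors and other targets of theirs, and 14 were measured. Of these 6 were higher and 8 lower for leucine against casein (median −0.04, or 11 higher, 3 lower and 0.36 without casein array 2). For dairy against casein 4 were higher and 10 lower (median −0.04, or 11 higher, 3 lower and 0.28 without that array), and for leucine against dairy 8 were higher and 6 lower (median 0.03). Limma called 0 of the 14 at an adjusted p of 0.05, and counted 1, 0 and 1 at an unadjusted p under 0.05, against the same shares of all genes. Without casein array 2 the shares of all genes higher were 47.4% for leucine and 47.7% for dairy, each against casein. Bax, which promotes apoptosis, stood at −0.28 ± 0.08 for leucine over casein. Bbc3, another apoptosis gene, stood at −0.17 ± 0.07, the ubiquitin ligase gene Fbxo32 at 0.34 ± 0.26 and Foxo4 at 0.28 ± 0.24 for the same pair. Foxo4 stood at −0.03 and Fbxo32 at 0.70 when casein array 2 was left out, and at 0.59 and −0.01 when casein array 1 was.

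**Figure D4:**
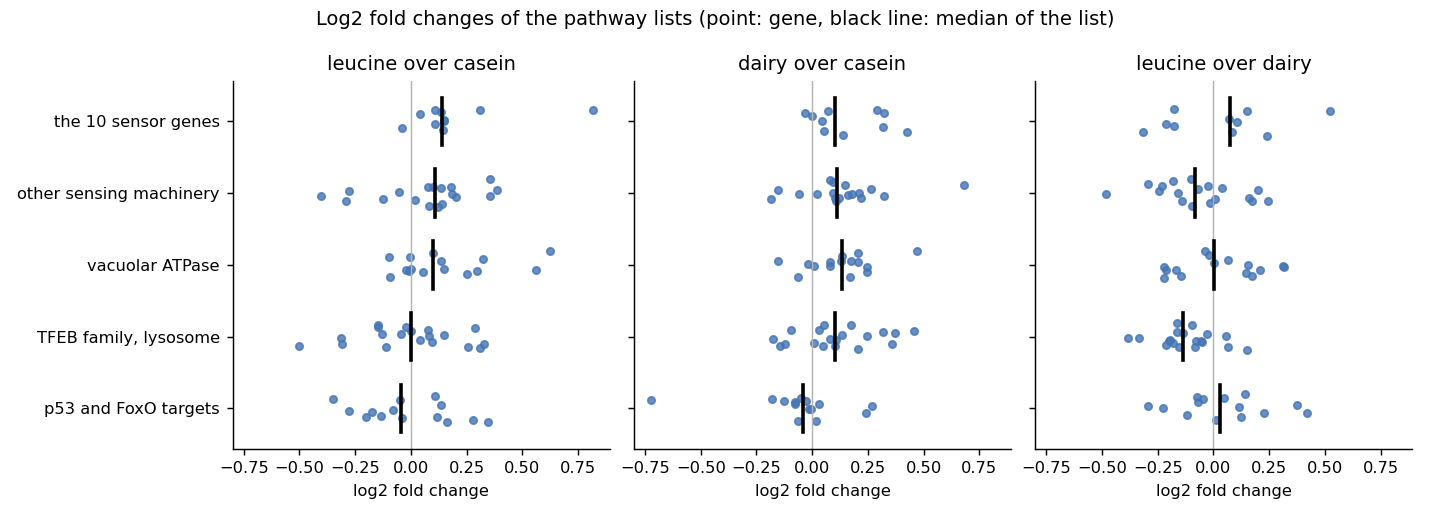
Log2 fold changes of single genes (points) in the 10 sensor genes and 4 related lists, for the 3 comparisons, with the median of each list as a black line. Medians lie between −0.14 and 0.14, and the point at 0.82 for leucine over casein is Slc38a9.

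Genes whose values followed those of Slc38a9 most closely over the 6 arrays were sought among 4113 genes that were brighter than the median gene and spanned at least 0.5. They were Dnajc27 with a Pearson r of 0.991, Chordc1 with 0.990, Ncbp3 with 0.987, Tm9sf2 with 0.983 and Kcnma1 with 0.982. These values describe genes picked for their likeness over 6 arrays that share 3 diets. In each of the 5 both leucine arrays were highest and both casein arrays lowest. Kcnma1, the pore subunit of a calcium-activated potassium channel, had 7.83 and 7.78 on the leucine arrays, 7.27 and 7.11 on the dairy arrays, and 6.67 and 6.66 on the casein arrays. For Rragd the most alike were Setd7 (r = 0.989), Mtdh (0.989), Eif4e3 (0.988), Ano6 (0.984) and Man1a1 (0.983), and all 5, like Rragd, were highest on dairy array 1. Mtdh had 8.69 on leucine array 1, dairy array 2 and casein array 1, and 9.21 on dairy array 1.

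**Figure D5:**
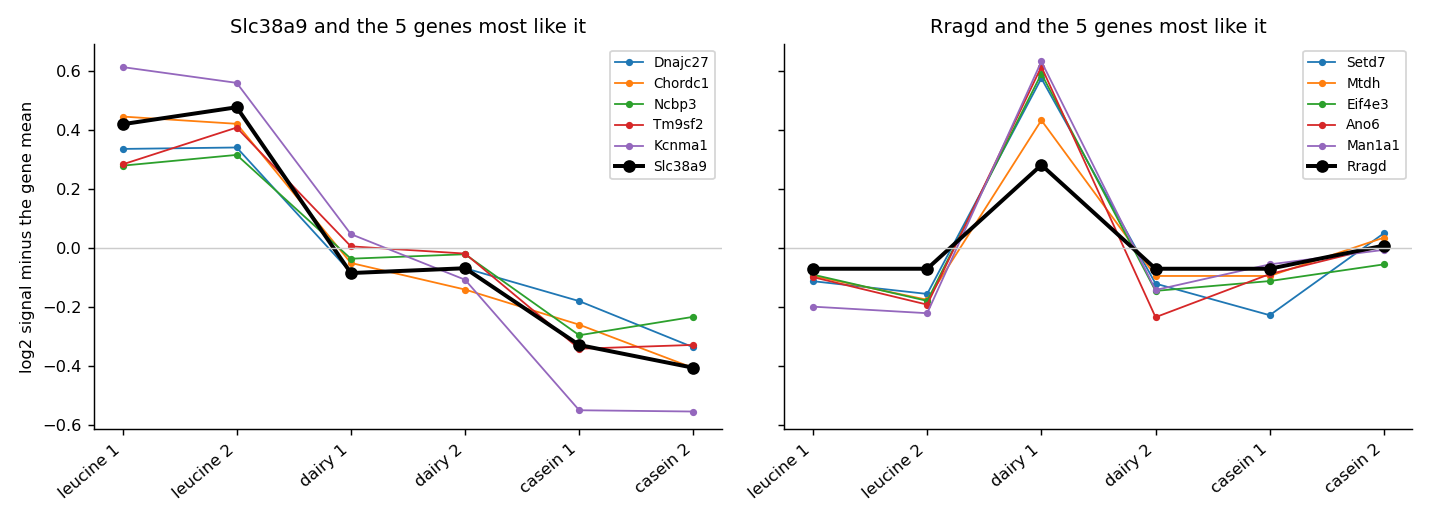
Log2 signal minus the mean of each gene over the 6 arrays, for Slc38a9 and Rragd (black) and the 5 genes most like each. Slc38a9 and its 5 genes are highest on both leucine arrays and lowest on both casein arrays, while Rragd and its 5 genes peak on dairy array 1, where Rragd reaches 9.06.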

How the data were processed

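Muscle RNA from 3 diets was measured on 6 whole-transcript Affymetrix arrays, 2 per diet. The deposited values were log2 signals. Per the submitters' processing notes, Affymetrix Expression Console produced them. Version, background correction and normalization are not given in the sources used here. Of 29214 transcript clusters, 15310 had 1 gene in the platform annotation and 323 had several, which were left out. Symbols were updated through gene identifiers (15279) or accessions (6), or kept (25). The cluster with the highest mean stood for a symbol, which left 14506 genes with no filter. Limma 3.58.1 in R 4.3.3 fitted diet to all 6 arrays (3 residual degrees of freedom), with empirical Bayes moderation and Benjamini-Hochberg adjustment over all genes at 0.05. The fit was tested on simulated data. With 2 arrays against 2 an exact permutation test cannot go below p = 0.333, and the number of arrays limits the precision. Members, lists and the naming rule (all members, 4 genes per list by F-test p, 5 most alike genes) were chosen with earlier results of these data known.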

Additional observations from a re-analysis of the deposited data

How the results depend on the processing

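Counts, medians and fold changes of the 10 genes were recomputed under up to 14 alternatives, 1 of which, leaving out genes with repeated values, was chosen after seeing the data and gives no value for Depdc5, Rraga, Rragc and Rragd. Fitting only 2 diets gives no F-test. The other lists and the genes named from them were recomputed only with 1 array left out at a time. Of the 408 values of single genes, 22 turned sign, none of them in Slc38a9 or Depdc5. They fell in 15 of the 30 pairs of a member and a comparison. Many of the 408 could not turn. An intensity trend, a replicate block or leaving out an array of the diet outside the comparison keeps the fold change as it is. For dairy over casein Depdc5 stood at 0, from which no turn was counted, and at −0.043 after quantile normalization and 0.035 after centring array medians. In the alternatives that kept 2 arrays per diet no member passed an adjusted p of 0.05 by limma. After quantile normalization Sesn1 stood at −0.032 for leucine over casein, and Nprl3 at −0.025, Rraga at −0.076 and Rragc at −0.061 for dairy over casein. The median of the 10 genes was then 0.00050 for dairy over casein and 0.13 for leucine over dairy. Centring array medians, which moved the median of all genes for leucine over casein by 0.10, gave Rragd 0.062 for that comparison and Sesn1 0.0050 for dairy over casein. The medians of the 10 genes were then 0.24 for leucine over casein and 0.14 for leucine over dairy. In the first, 2 members had an unadjusted p under 0.05 by limma, as did 1608 of 14506 genes. Without genes with repeated values the 6 remaining members had medians of 0.31 for dairy over casein and −0.054 for leucine over dairy. For dairy over casein 0 of them had an unadjusted p under 0.05 by limma, where 218 of 5688 genes did. Fitting only dairy and casein left 1 member, where 638 of 14506 genes passed. Leaving out 1 array at a time, leucine over casein called 0 to 1 genes at an adjusted p of 0.05 (limma), counted 1 to 2 members at an unadjusted p under 0.05 and had medians of 0.051 to 0.198. Dairy over casein called 0 to 1 genes, counted 1 to 3 members and had medians of 0.050 to 0.178, and leucine over dairy called 0 genes and counted 1 to 2 members with medians of −0.015 to 0.085. The F-test counted 1 to 2 members. The gene called was Il6, in both comparisons with casein, when casein array 1 was left out. Casein array 2 then stood alone for casein. Its inflammatory transcripts averaged 6.05, where the other arrays had 3.74 to 3.93. For leucine over casein the single-gene ranges were −0.15 to 0.23 for Sesn1, −0.34 to 0.64 for Sesn3, −0.028 to 0.25 for Nprl2 and −0.30 to 0.52 for Flcn. For dairy over casein they were −0.22 to 0.16 for Sesn1, −0.17 to 0.81 for Sesn3, −0.19 to 0.33 for Nprl3, −0.039 to 0.31 for Rragd and −0.093 to 0.73 for Flcn. For leucine over dairy they were −0.046 to 0.18 for Sesn1, −0.44 to 0.085 for Sesn3 and −0.016 to 0.50 for Nprl3. The cause of these moves was not tested, beyond the smaller number of arrays or genes. With the array number as a replicate block the counts of members at an unadjusted p under 0.05 were 1, 2 and 1, as without it. Over all 14506 genes the counts were 1619, 848 and 961, and no call changed. Array numbers were not read as pairing the arrays, since no label says that they mark a batch. The differences between arrays 1 and 2 correlated at 0.179, 0.0865 and 0.0536 between diets. Whether arrays of the same number were handled together was not tested.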
